A study of Mus musculus with 18 samples.

Results

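Nuclear receptors are transcription factors that bind DNA near their target genes, many of them switched by small lipophilic ligands such as hormones, retinoids, fatty acids, oxysterols and bile acids. The superfamily is named by a systematic code of subfamily number, group letter and member number, and in the liver it sets the output of lipid, glucose and bile acid metabolism. The receptors described here are those of the Steroltalk array, leaving out the codes Nr1i2, Nr1i3, Nr1h3, Nr1h4, Nr1c1, Nr0b2 and Nr1f1. They were chosen by name alone, as gene probes whose name is Nr followed by a digit from 0 to 6, a letter and a digit. The rule found 39 probes among the 289 gene probes of the array (13.5%), each of them spotted 3 times.

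RNA was from the left lateral liver lobe of 18 female C57BL/6 mice of 16 weeks. Groups of 6 mice received one oral dose of atorvastatin (40 mg/kg), of rosuvastatin (20 mg/kg) or of the tap water vehicle, in the morning and after 1 week on a diet with 1% cholesterol, which the vehicle mice ate too. Statins inhibit HMG-CoA reductase, the enzyme that limits cholesterol synthesis. The mice were killed 24 h after the dose, and because both the drug and the dose differed between the statin groups, a difference between them cannot be assigned to either. Each array held Cy3-labelled RNA of 1 mouse against a Cy5-labelled pool of all samples. Every value is a log2 ratio to that same pool. After normalisation within the array, 0 is the trend of its gene spots and need not be the level of the pool. Group means of Alb1, for example, were 0.83, 1.00 and 0.81 in atorvastatin, rosuvastatin and vehicle mice. Those of Apoa1 were -0.33, -0.29 and -0.31.

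The hepatocyte genes Alb1, Apoa1, Cyp2e1 and Cyp3a11 were above background on all 18 arrays and Cyp7a1, the rate-limiting enzyme of bile acid synthesis, on 11. Of the adipocyte markers Lep was above background on 0 arrays and Adipoq on 9, and of the endothelial markers Icam1 was above on 10 and Vcam1 on 3. The median sample intensity of the gene spots was 206 to 376 over a local background of 62 to 146. Ratios of atorvastatin 4 and vehicle 5 correlated least with the other arrays over all measured probes (median r -0.46 and 0.25), and without the Saa1, Saa2 and Saa3 probes their median r was 0.01 and -0.08, beside 0.16 to 0.47 for the rest. Since every array carries the same dye assignment in the labels, the direction was kept.

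A probe was called above background on an array where at least 2 of its 3 spots had a sample intensity over the local background plus 2 background SDs. By this measure 12 of the 39 receptors (30.8%) had a signal on 6 arrays or more of the 18 and are called measured, against 176 of the 250 other gene probes (70.4%) and 188 of all 289 (65.1%). A further 9 receptors were above background on 1 to 5 arrays, and 18 were above on 0 arrays. In whole liver, fewer cells of a type and less RNA per cell cannot be told apart.

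**Figure D1:**
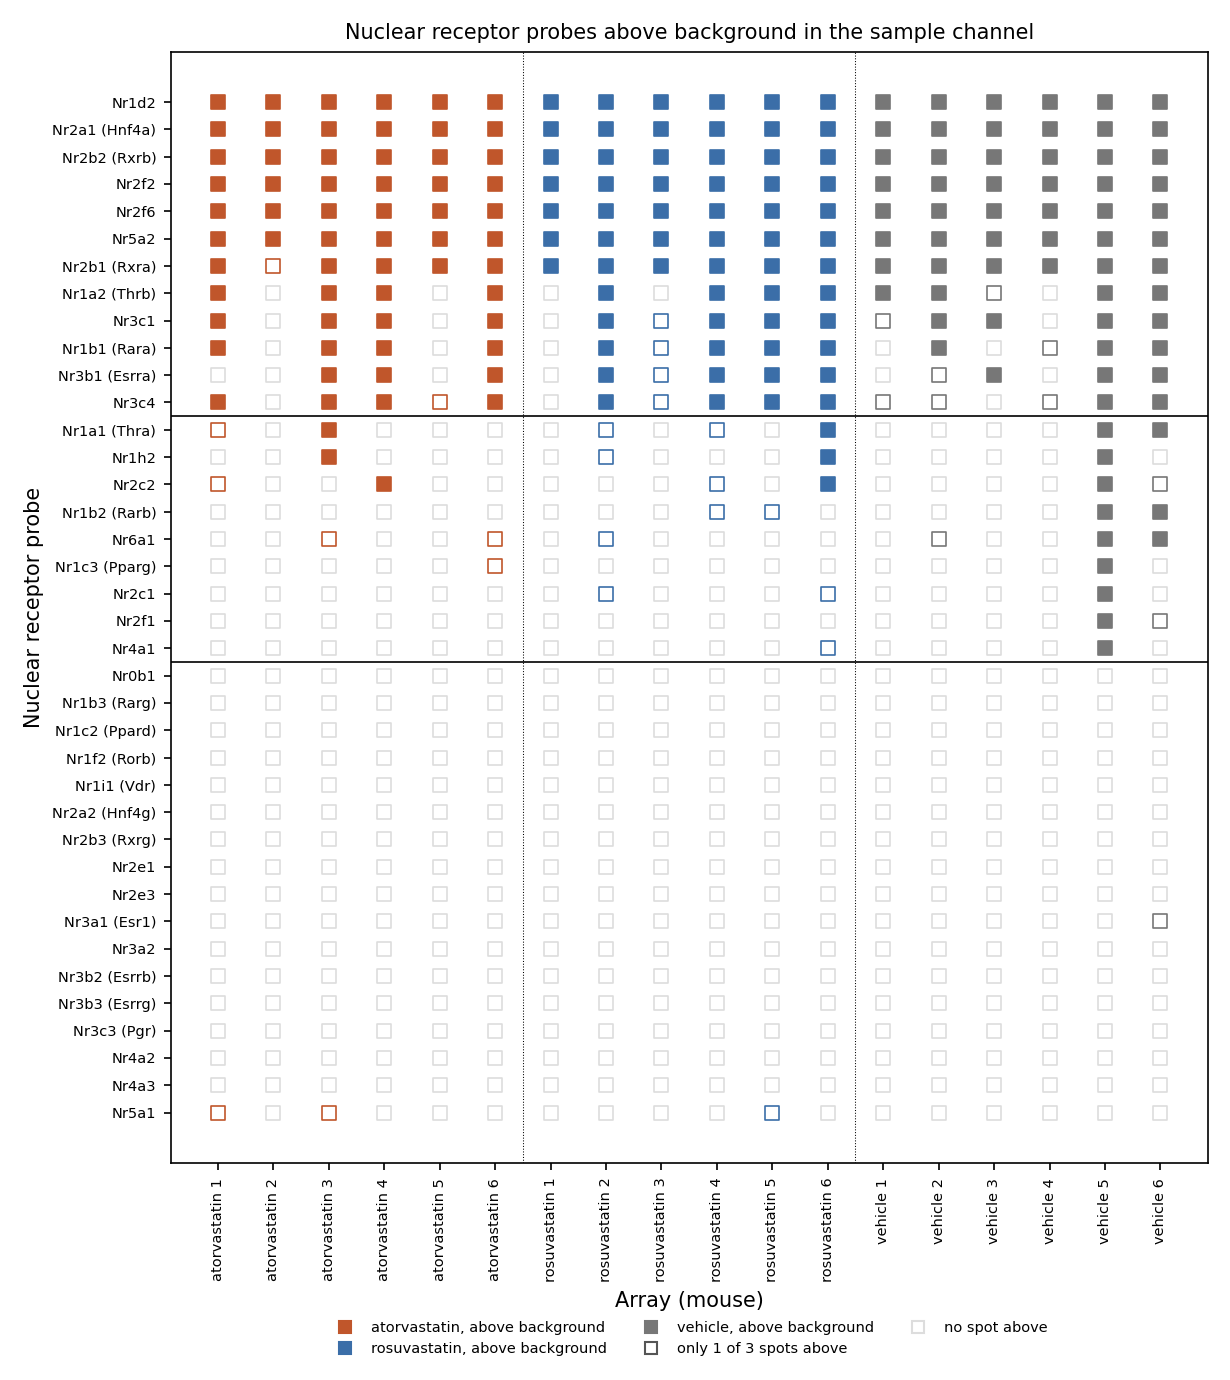
Nuclear receptor probes (rows, with the RefSeq symbol in parentheses where it differs) above background on each array (columns, 6 atorvastatin, 6 rosuvastatin and 6 vehicle mice). Filled squares mark at least 2 of 3 spots above background plus 2 SDs, open dark squares 1 spot, pale squares none. Horizontal lines part the 12 measured receptors, the 9 above on 1 to 5 arrays and receptors above on none.

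The receptors with a signal on every array were 6. They were Nr2a1 (Hnf4a), which maintains the gene programme of hepatocytes, Nr5a2 (LRH-1), an activator of bile acid synthesis genes, the orphan receptors Nr2f2 (COUP-TFII) and Nr2f6, the retinoid X receptor Nr2b2 (Rxrb), a dimer partner of many other receptors, and Nr1d2 (REV-ERBβ), a haem-binding repressor of the circadian clock. The second retinoid X receptor, Nr2b1 (Rxra), was above background on 17 arrays and failed on atorvastatin 2. The probes of the remaining measured receptors were dimmer. The thyroid hormone receptor Nr1a2 (Thrb) and the glucocorticoid receptor Nr3c1 were above background on 12 arrays each, the retinoic acid receptor Nr1b1 (Rara) on 11, and both the oestrogen-related receptor Nr3b1 (Esrra), a regulator of mitochondrial energy genes, and Nr3c4 on 10. Nr3c4 has no match in the gene table used here and is given by its code.

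Median raw sample intensity over the arrays was 1238 for Nr2a1, 985 for Nr2f2, 826 for Nr5a2, 536 for Nr2f6 and 504 for Nr1d2, each far above the local background. For the 5 dimmest measured receptors it was 162 (Nr3b1), 171 (Nr3c4), 177 (Nr1b1), 184 (Nr3c1) and 202 (Nr1a2). These intensities give the room over background of each probe. They give no order of transcript levels between receptors, because probes differ in length and base composition. No receptor probe had a saturated spot on any array.

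By subfamily, 3 of 12 probes of subfamily 1 (thyroid hormone, retinoic acid, PPAR, REV-ERB and vitamin D receptors and their kin) were measured, 5 of 12 of subfamily 2 (HNF4, retinoid X and COUP-TF receptors and their kin), and 3 of 8 of subfamily 3 (steroid and oestrogen-related receptors). Of subfamily 4, the early-response receptors, 0 of 3 were measured, and of subfamily 5 it was 1 of 2. The single probes of subfamilies 0 and 6 were not measured. Of the 6 receptors on every array, 4 were of subfamily 2.

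Most of these receptors bind DNA at the half-site AGGTCA or a variant of it, alone or in pairs. Among the measured receptors, 10 had RefSeq promoter windows (GRCm38.p6, 300 bases around each annotated start), and 5 of these 10 had AGGTCA on either strand in at least 1 of their windows: Nr1a2, Nr1b1, Nr1d2, Nr2b1 and Nr5a2. By window this was 5 of 18 (27.8%), with 6 of 34 (17.6%) for the receptors that were not measured and 16.3% of all 32851 windows in the table. The E-box CACGTG, the site of clock activators, was in 3 of the 18 windows, in 0 of the 34 of receptors that were not measured and in 7.15% of all windows. The 3 windows hold 2 sites, 1 of Nr1a2 and 1 of Nr1b1, because 2 windows of Nr1b1 overlap. Shown are the 150 bases before a start site of the receptor that varied most between mice (Nr1d2), of the retinoid X receptor whose window held a pair of half-sites (Rxra), and of the bile acid synthesis regulator Nr5a2. Capitals mark AGGTCA, or TGACCT where it lies on the other strand.
Nr1d2, chr14:18239107-18239256, minus strand: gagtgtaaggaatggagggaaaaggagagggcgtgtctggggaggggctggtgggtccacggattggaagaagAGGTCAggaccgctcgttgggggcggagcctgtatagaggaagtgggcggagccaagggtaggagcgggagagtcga
Rxra (Nr2b1), chr2:27709142-27709291, plus strand: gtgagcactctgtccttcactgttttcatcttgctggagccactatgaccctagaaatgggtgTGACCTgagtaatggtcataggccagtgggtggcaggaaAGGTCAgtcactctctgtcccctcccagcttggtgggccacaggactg
Nr5a2, chr1:136960449-136960598, minus strand: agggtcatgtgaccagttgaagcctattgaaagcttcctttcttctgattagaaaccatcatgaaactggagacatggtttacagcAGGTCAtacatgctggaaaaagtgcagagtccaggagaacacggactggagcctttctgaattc
The half-site began 77 bases before the start in Nr1d2 and 64 bases before it in Nr5a2, and the pair in Rxra began 87 and 48 bases before it, on opposite strands. Such a match is a string in a window, and binding was not measured.

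The number of receptors above background differed more between mice than between groups. It was 6 to 14 of 39 on atorvastatin arrays (median 11.5), 7 to 15 on rosuvastatin arrays (median 12) and 7 to 21 on vehicle arrays (median 9.5), so the ranges overlapped throughout. Vehicle 5 had the most, 21 receptors, and also the most gene probes above background (218, against 155 to 200 on the other arrays) and the highest median sample intensity (376). Without it the vehicle median was 9 and the highest count on any array was 15.

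All 9 receptors of the middle class were above background on vehicle 5, and 4 of them, Nr1c3 (Pparg), Nr2c1 (TR2), Nr2f1 (COUP-TFI) and Nr4a1, on that array only. The thyroid hormone receptor Nr1a1 (Thra) was above background on 4 arrays (atorvastatin 3, rosuvastatin 6, vehicle 5 and vehicle 6), with log2 ratios of -0.04, 0.15, 0.12 and -0.02. The liver X receptor Nr1h2, an oxysterol sensor, was above on atorvastatin 3 (0.10), rosuvastatin 6 (0.13) and vehicle 5 (0.15). The values of both receptors were thus -0.04 to 0.15 on these arrays, from dim spots whose ratios the background correction draws towards 0.

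Nr2c2 (TR4), an orphan receptor, was above background on atorvastatin 4 (0.13), rosuvastatin 6 (-0.05) and vehicle 5 (0.32). The retinoic acid receptor Nr1b2 (Rarb) and Nr6a1 (GCNF) were above on vehicle 5 and vehicle 6 alone, with ratios of -0.06 and 0.09 for Nr1b2 and of -0.06 and 0.15 for Nr6a1. On vehicle 5, ratios were 0.03 for Nr1c3, 0.15 for Nr2c1 and -0.05 for Nr2f1. The exception was Nr4a1 (Nur77), an early-response receptor without a known classical ligand, at 0.76 on vehicle 5 with a sample intensity of 207 over a background of 74. Thus 6 of the 9 were above background in vehicle arrays only, all on vehicle 5, and 22 of the 39 receptors were above on none of the other 17 arrays. The part of the overall brightness of vehicle 5 in these calls was not tested. That array also had the most gene probes above background of any array. The matching counts for the other gene probes are not given here, so these calls are not shown to be particular to receptors.

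The receptors above background on 0 arrays included the orphan Nr0b1 (DAX-1), the retinoic acid receptor Nr1b3 (Rarg), Nr1c2 (Ppard), the ROR receptor Nr1f2 (Rorb), the vitamin D receptor Nr1i1 (Vdr), Nr2a2 (Hnf4g), Nr2b3 (Rxrg), Nr2e1 (TLX), the photoreceptor factor Nr2e3, the oestrogen receptor Nr3a1 (Esr1), Nr3a2, the oestrogen-related receptors Nr3b2 (Esrrb) and Nr3b3 (Esrrg), the progesterone receptor Nr3c3 (Pgr), the early-response receptors Nr4a2 and Nr4a3, and the steroidogenic factor Nr5a1 (SF-1). Not being above background at this signal does not show that a transcript was absent. In the reference channel, where the pool was read over a lower background of 39 to 55, 8 of these 18 were above background on 0 arrays, 3 on 1 to 5 arrays and 7 on at least 6, among them Nr2b3 and Nr5a1, which were above on all 18. Over all 39 receptors, the reference channel was above background for 24 to 29 on an array (median 27) and for 23 on every array. Since the reference is a pool of all samples, and dye and background differ between channels, the extra calls cannot be assigned to a mouse or a group.

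The measured receptors were mostly steady between mice. The median over the 12 of the SD between mice of 1 group was 0.147 log2 units, against 0.197 over all 188 measured probes, and 9 of the 12 lay below that all-probe median. With plain background subtraction both medians were higher (0.186 and 0.215) and 8 of 12 lay below. Nr3b1 (0.0905) and Nr3c1 (0.102) had the narrowest spread, both dim probes with an SE of the mean of 3 spots of 0.0680 and 0.0654, close to that spread. Nr1d2 had the widest (0.482, rank 20 of 188), with an SE of its spot mean of 0.0325, followed by Nr2a1 (0.248) and Nr2b1 (0.225).

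**Figure D2:**
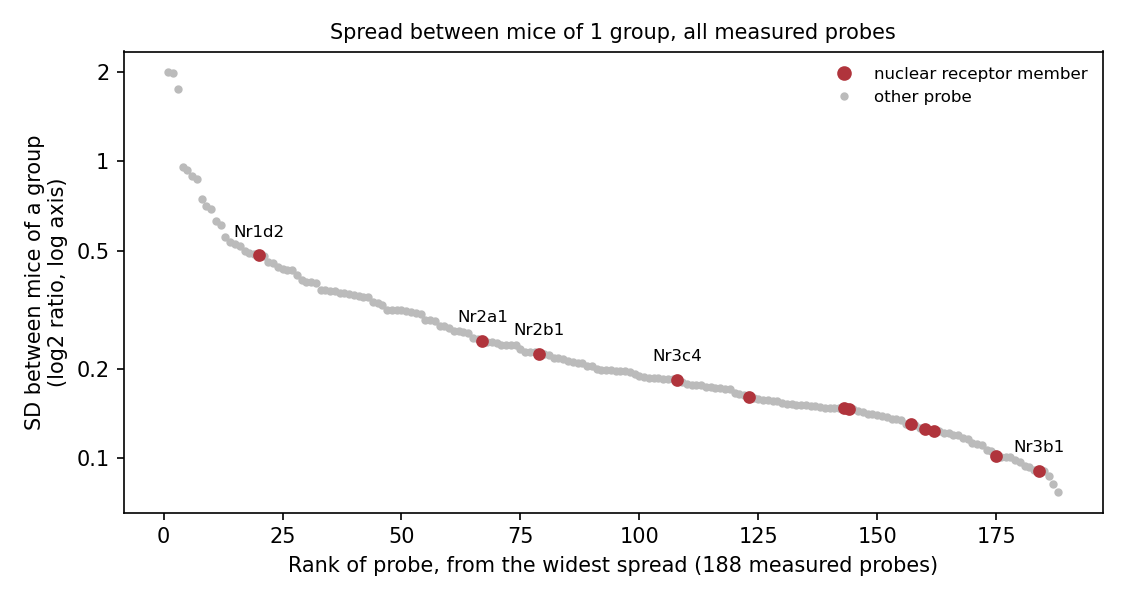
SD between mice of 1 group (pooled over the 3 groups, log2 ratio, log axis) of the 188 measured probes, ranked from the widest. Red points are the 12 nuclear receptors, of which 9 lie below the all-probe median of 0.197 and Nr1d2 ranks 20.

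In the comparisons between groups no receptor passed the test. In limma, 0 of 12 receptors and 0 of 188 probes (0%) reached an adjusted p of 0.05 for atorvastatin against vehicle, for rosuvastatin against vehicle and for atorvastatin against rosuvastatin, where the smallest adjusted p over all probes was 0.381, 0.578 and 0.653. For atorvastatin against vehicle 1 of 12 receptors had an unadjusted p under 0.05, beside 8.51% of all probes. It was 1 of 12 beside 6.38% for rosuvastatin against vehicle, and 0 of 12 beside 5.32% for atorvastatin against rosuvastatin. The receptor was Nr3c4 in both comparisons with vehicle, which share the vehicle mice. In none of the 3 comparisons were the 2 groups free of overlap for any receptor, and over all probes this held for 0%, 0% and 0.532%.

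Most intervals were narrow. The 95% intervals kept within 0.5 log2 units of 0 for 11 of 12 receptors in atorvastatin against vehicle (all probes 70.7%), for 11 of 12 in rosuvastatin against vehicle (71.8%) and for 10 of 12 in atorvastatin against rosuvastatin (72.9%), and Nr1d2 was outside in each. For atorvastatin against vehicle 11 of 12 receptors had values above 0, with a median of 0.06, where 45.7% of all probes were above 0 with a median of -0.01. Among the 11 arrays with an equal number of background pixels, a possible batch, it was 8 of 12 (all probes 51.1%). Without vehicle 6 the median was 0.03 with 10 of 12 above 0 (all probes 44.1%). With the deposited ratios it was 6 of 11 with a median of 0.00 (all probes 29.6%, median -0.09). With median centring it was 12 of 12 with a median of 0.12 (all probes 58.5%, median 0.03). The values of all probes thus moved with these settings too. For rosuvastatin against vehicle 6 of 12 were above 0 (all probes 48.4%), with a median near 0. It was 3 of 12 without vehicle 6 (all probes 46.3%), 9 of 12 with median centring (58.5%) and 2 of 11 with the deposited ratios (26.8%). For atorvastatin against rosuvastatin it was 10 of 12 (all probes 52.1%) with a median of 0.06. Of the 36 differences (12 receptors in 3 comparisons), 16 changed sign when 1 of the 18 arrays was left out, and 0 of these 16 were among the 9 differences of at least 0.1 in size.

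**Figure D3:**
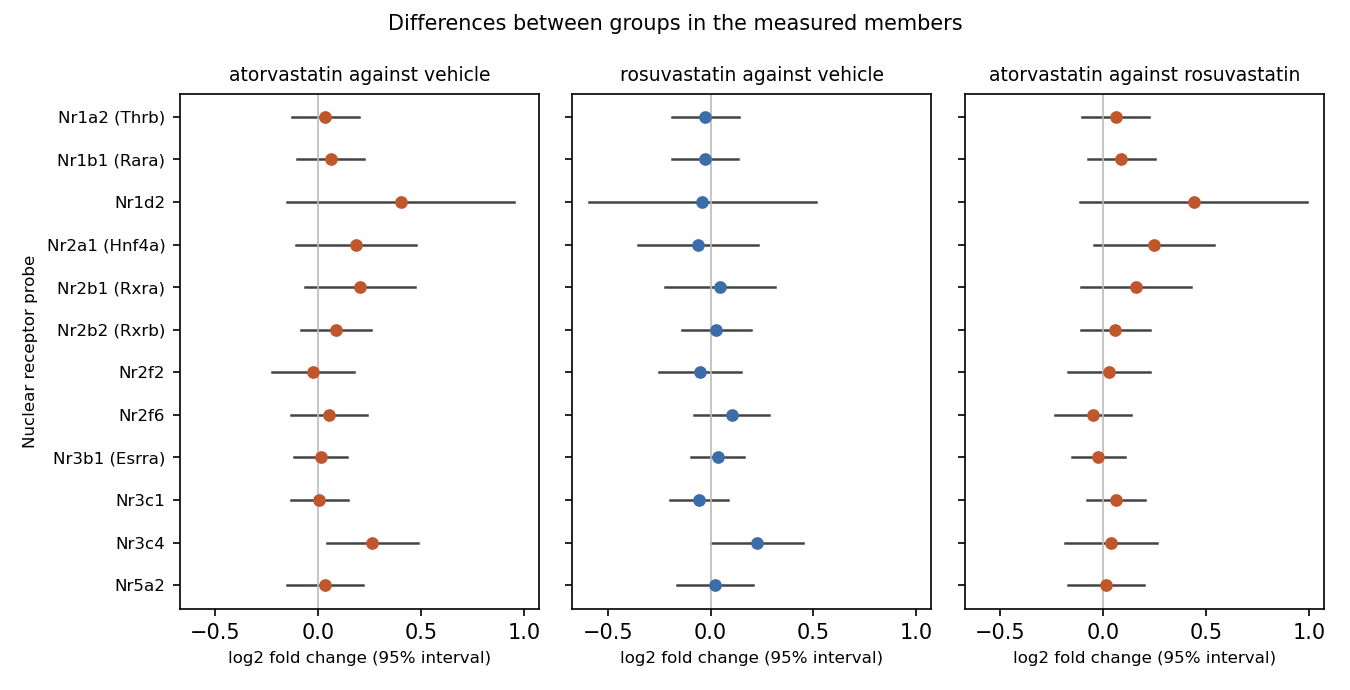
Difference between groups (log2 fold change, points) with its 95% interval (lines) for the 12 measured receptors, from the limma fit over 18 arrays. Only the intervals of Nr3c4 against vehicle leave out 0, before adjustment over 188 probes.

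Among the hepatocyte regulators, Nr2a1 (Hnf4a) showed the largest contrast between the statins. Its log2 ratio was -0.14 to 0.24 in atorvastatin mice (median 0.04), -0.54 to 0.02 in rosuvastatin mice (median -0.15) and -0.62 to 0.16 in vehicle mice (median 0.01). The low values belonged to rosuvastatin 2 (-0.54), vehicle 6 (-0.62) and vehicle 3 (-0.51), and all groups overlapped. The difference was 0.25 for atorvastatin against rosuvastatin (SE 0.14, 95% interval -0.05 to 0.54, adjusted p 0.653), with all 6 atorvastatin mice above the rosuvastatin mean and a two-sided exact permutation p of 0.039. That permutation p is 1 of 36 computed over receptors and comparisons and is not adjusted. Atorvastatin was 0.19 above vehicle (SE 0.14, adjusted p 0.687) and rosuvastatin differed from vehicle by -0.06 (adjusted p 0.909). Single arrays moved both: the first was 0.09 without vehicle 6 and 0.24 without vehicle 5, and the second was -0.16 without vehicle 6 and 0.01 without rosuvastatin 2.

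Nr5a2 had log2 ratios of -0.04 to 0.40 in atorvastatin mice (median 0.15), 0.02 to 0.26 in rosuvastatin mice (median 0.18) and -0.20 to 0.33 in vehicle mice (median 0.16). Differences were 0.04 for atorvastatin against vehicle (95% interval -0.15 to 0.22) and 0.02 for rosuvastatin against vehicle (-0.17 to 0.20), and both turned below 0 (-0.03 and -0.05) without vehicle 6. The second was 0.06 without vehicle 5. The group medians of this receptor were thus close together and its values overlapped from end to end. Of the genes known as targets of HNF4α and LRH-1, among them apolipoproteins and bile acid synthesis enzymes, 11 were on the array and measured. Of these, 0 of 11 passed the test or had an unadjusted p under 0.05 in any comparison. The share of all probes with such an unadjusted p was 8.51% for atorvastatin against vehicle and 6.38% for rosuvastatin against vehicle. It was 5.32% for atorvastatin against rosuvastatin, so 0 of 11 is near these shares.

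The COUP-TF receptors, which mostly repress transcription, had values that overlapped between all groups, and equality of the groups was not tested. Nr2f2 had -0.12 to 0.30 in atorvastatin mice (median 0.09), -0.06 to 0.29 in rosuvastatin mice (median 0.06) and -0.07 to 0.36 in vehicle mice (median 0.07). Nr2f6 had -0.15 to 0.16 in atorvastatin mice (median 0.01), -0.08 to 0.19 in rosuvastatin mice (median 0.07) and -0.36 to 0.23 in vehicle mice (median -0.07). The wider vehicle range of Nr2f6 came from vehicle 2 (-0.36) and vehicle 4 (0.23). Its difference was 0.05 for atorvastatin against vehicle (95% interval -0.13 to 0.24) and 0.10 for rosuvastatin against vehicle (-0.08 to 0.29). Without vehicle 2 they were -0.01 and 0.04, and without vehicle 4 they were 0.11 and 0.16. For Nr2f2 the 2 differences were -0.02 (-0.22 to 0.18) and -0.05 (-0.25 to 0.15).

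**Figure D4:**
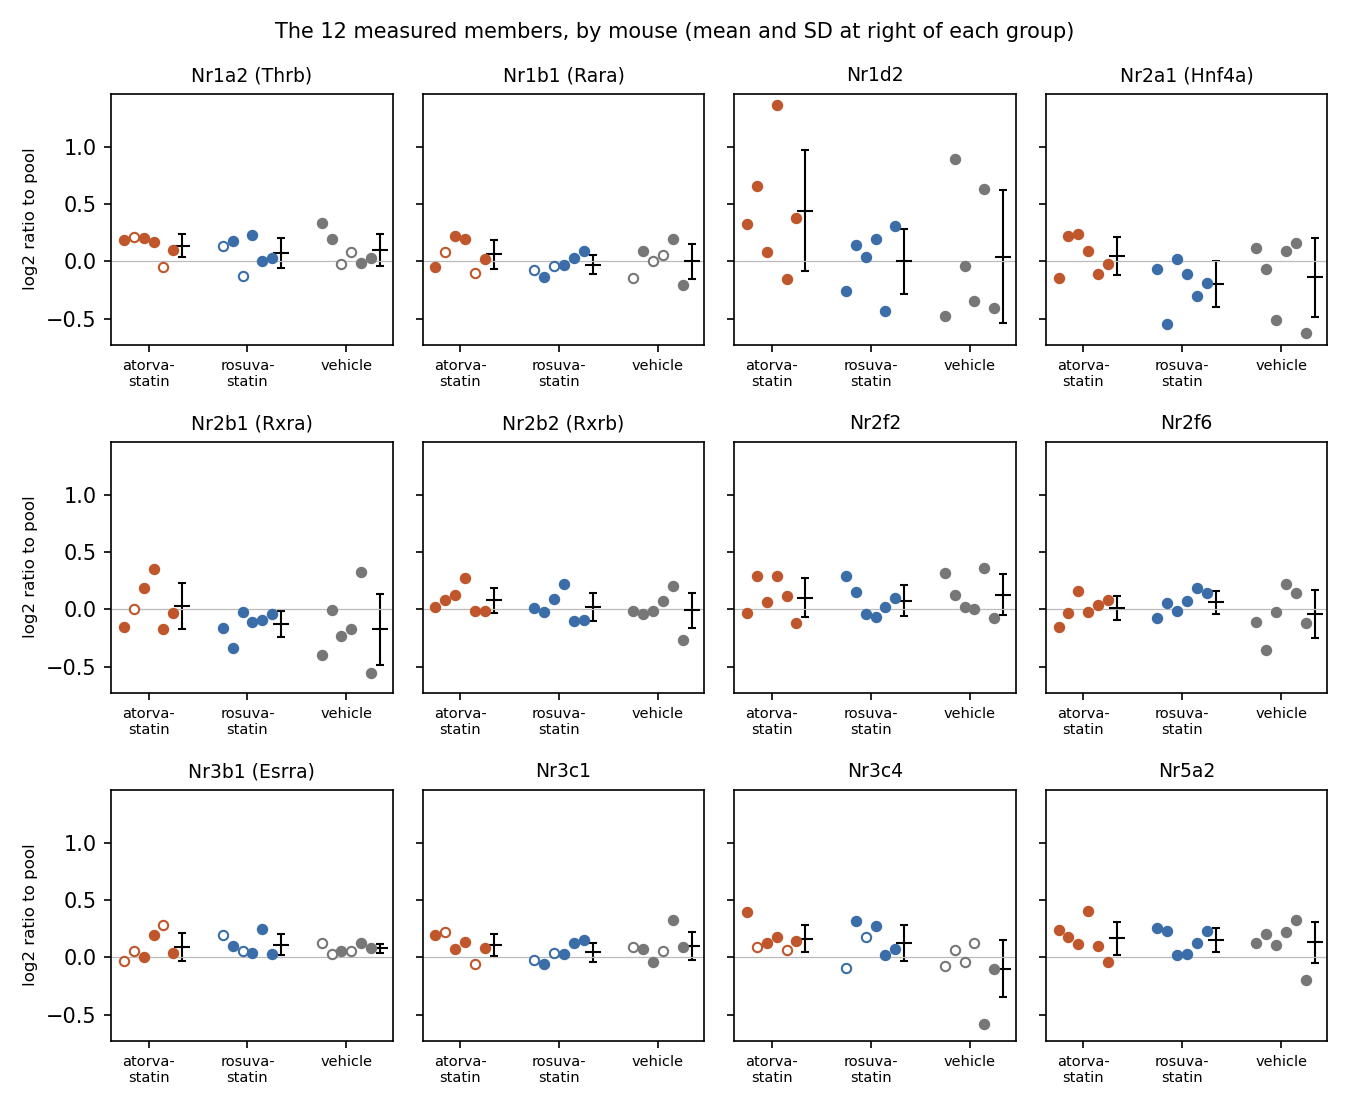
Log2 ratio to the pool of the 12 measured receptors in each mouse (points; atorvastatin, rosuvastatin, vehicle, 6 mice each), with mean and SD beside each group. Open points are arrays on which the probe was not above background; Nr1d2 is the widest, from -0.48 (vehicle 1) to 1.37 (atorvastatin 4).

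The retinoid X receptors are the partners through which thyroid hormone, retinoic acid, PPAR and liver X receptors bind DNA. Nr2b1 (Rxra) had log2 ratios of -0.17 to 0.36 in atorvastatin mice (median -0.01), -0.34 to -0.02 in rosuvastatin mice (median -0.10) and -0.56 to 0.33 in vehicle mice (median -0.20). Vehicle 6 (-0.56) and vehicle 1 (-0.40) were lowest, and atorvastatin 4 and vehicle 5, the arrays that stood apart, were highest (0.36 and 0.33). The difference of atorvastatin from vehicle was 0.21 (SE 0.13, 95% interval -0.06 to 0.47, adjusted p 0.593), with 6 of 6 atorvastatin mice above the vehicle mean. Without vehicle 5 it was 0.31 (adjusted p 0.200), without vehicle 6 0.13, and among the 11 arrays with an equal background ring it was 0.04 (adjusted p 0.998). Rosuvastatin differed from vehicle by 0.05 (-0.22 to 0.31), with 0.15 without vehicle 5 and -0.03 without vehicle 6.

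Nr2b2 (Rxrb) had -0.02 to 0.27 in atorvastatin mice (median 0.05), -0.10 to 0.22 in rosuvastatin mice (median -0.01) and -0.26 to 0.21 in vehicle mice (median -0.01). It differed from vehicle by 0.09 in atorvastatin mice (95% interval -0.08 to 0.26) and by 0.03 in rosuvastatin mice (-0.14 to 0.20). Without vehicle 5 these were 0.13 and 0.07, and without vehicle 6 they were 0.04 and -0.02. Its lowest value was again on vehicle 6 (-0.26).

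The measured thyroid hormone, retinoic acid and glucocorticoid receptors stayed near 0 in all groups. Nr1a2 (Thrb) had -0.05 to 0.21 in atorvastatin mice (median 0.18), -0.12 to 0.23 in rosuvastatin mice (median 0.08) and -0.02 to 0.34 in vehicle mice (median 0.05). Nr1b1 (Rara) had -0.10 to 0.22 in atorvastatin mice (median 0.05), -0.14 to 0.09 in rosuvastatin mice (median -0.04) and -0.21 to 0.19 in vehicle mice (median 0.03). Nr3c1, the glucocorticoid receptor, had -0.06 to 0.22 in atorvastatin mice (median 0.11), -0.06 to 0.15 in rosuvastatin mice (median 0.03) and -0.04 to 0.32 in vehicle mice (median 0.08), with the highest value on vehicle 5. Ranges of the 3 groups overlapped for each of these receptors. Against vehicle, differences of the 3 receptors were 0.01 to 0.06 in atorvastatin mice and -0.06 to -0.03 in rosuvastatin mice, and their 95% intervals together spanned -0.13 to 0.22 and -0.20 to 0.14.

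Of the genes known to respond to glucocorticoids, 4 of 5 on the array were measured and 0 passed the test. Nfkbia, the inhibitor of NF-κB, had an unadjusted p under 0.05 for rosuvastatin against vehicle (log2 fold change 0.31, SE 0.14, adjusted p 0.723). This was 1 of the 4, beside 6.38% of all probes. In the other comparisons it was 0 of 4. The single retinoid target on the array, Cyp26a1, which degrades retinoic acid, differed from vehicle by -0.25 in atorvastatin mice and -0.44 in rosuvastatin mice with an SE of 0.51, so that the interval of the first reached from -1.31 to 0.81.

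Nr3b1 (Esrra) had -0.03 to 0.28 in atorvastatin mice (median 0.05), 0.03 to 0.25 in rosuvastatin mice (median 0.08) and 0.03 to 0.13 in vehicle mice (median 0.07). Its highest value, on atorvastatin 5, came from an array on which it was not above background. Differences from vehicle were 0.01 for atorvastatin (95% interval -0.12 to 0.14) and 0.03 for rosuvastatin (-0.10 to 0.16).

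Nr3c4 was the receptor with the lowest unadjusted p. Its log2 ratio was 0.06 to 0.39 in atorvastatin mice (median 0.13), -0.09 to 0.31 in rosuvastatin mice (median 0.12) and -0.58 to 0.13 in vehicle mice (median -0.05). All 6 atorvastatin mice and all 6 rosuvastatin mice lay above the vehicle mean, with overlap of both groups with vehicle. Rosuvastatin 1 (-0.092) was barely above that mean (-0.099), which vehicle 5 (-0.578) pulled down. The difference was 0.26 for atorvastatin against vehicle (SE 0.11, 95% interval 0.04 to 0.49, unadjusted p 0.023, adjusted p 0.501, exact permutation p 0.015) and 0.23 for rosuvastatin against vehicle (SE 0.11, 95% interval 0.00 to 0.45, unadjusted p 0.047, adjusted p 0.723, exact permutation p 0.071). The statins differed from each other by 0.04 (-0.18 to 0.26).

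One vehicle mouse weighed on both values of Nr3c4. Vehicle 5 had -0.58, and the next lowest vehicle mouse -0.10. Without vehicle 5 the differences were 0.17 for atorvastatin and 0.13 for rosuvastatin. The probe was dim, above background on 4 atorvastatin, 4 rosuvastatin and 2 vehicle arrays. Among the 11 arrays with an equal background ring, which include vehicle 5, the differences were 0.22 and 0.20. With plain background subtraction over all arrays they were 0.43 and 0.36. In the deposited log2 ratios, which have gaps, they were 0.04 and 0.10. Genes known to respond to sex steroids were on the array with 4 probes, of which 3 were measured and 0 passed the test. Cyp17a1, a steroid hydroxylase, had -0.60 for rosuvastatin against vehicle (SE 0.26, adjusted p 0.723), Cyp2a4 -0.30 for atorvastatin against vehicle (SE 0.11, adjusted p 0.452) and Cyp4b1 -0.25 for atorvastatin against rosuvastatin (SE 0.10, adjusted p 0.653), each with an unadjusted p under 0.05. In each of these comparisons it was 1 of the 3 measured, a different gene each time. Over all probes the shares were 6.38%, 8.51% and 5.32%, in the same order.

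Nr1d2 was the receptor that varied most from mouse to mouse. Its log2 ratio was -0.15 to 1.37 in atorvastatin mice (median 0.35), -0.43 to 0.31 in rosuvastatin mice (median 0.09) and -0.48 to 0.89 in vehicle mice (median -0.19). Its high values were on atorvastatin 4 (1.37), atorvastatin 2 (0.65), vehicle 2 (0.89) and vehicle 5 (0.63), so both atorvastatin and vehicle mice held them, while the highest rosuvastatin mouse reached 0.31. The difference was 0.40 for atorvastatin against vehicle (SE 0.26, 95% interval -0.15 to 0.95, adjusted p 0.643), 0.44 for atorvastatin against rosuvastatin (-0.11 to 0.99, adjusted p 0.653) and -0.04 for rosuvastatin against vehicle (-0.59 to 0.51, adjusted p 0.965).

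Single arrays moved these differences of Nr1d2. For atorvastatin against vehicle the value was 0.22 without atorvastatin 4 and 0.57 without vehicle 2 (adjusted p 0.302), and among the 11 arrays with an equal background ring it was 0.10. For atorvastatin against rosuvastatin it was 0.26 without atorvastatin 4 and 0.35 within those 11 arrays. For rosuvastatin against vehicle the sign turned, with 0.13 without vehicle 2. The 3 spots of the probe agreed closely on each array beside this range, as the SE of their mean of 0.0325 shows.

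Nr1d2 represses Arntl (BMAL1), the core activator of the clock, and Clock encodes its partner. Both were measured on all 18 arrays, and neither passed the test in any comparison. Arntl had its lowest value of all arrays (-0.66) on atorvastatin 4, where Nr1d2 was highest, with -0.30 on atorvastatin 2, -0.12 on vehicle 2 and -0.11 on vehicle 5. Cry1, a clock repressor, had its lowest values on atorvastatin 4 (-0.60) and vehicle 2 (-0.52), with -0.23 on atorvastatin 2 and -0.17 on vehicle 5. Its values on atorvastatin 6 (-0.43), rosuvastatin 6 (-0.34) and atorvastatin 1 (-0.30) were lower than on atorvastatin 2 or vehicle 5. Values below 0 were not limited to these arrays, since Cry1 was below 0 on 13 of 18 arrays and Arntl on 10. The Clock probe was below 0 on 7 of 18 arrays. It had -0.14 on atorvastatin 4, -0.07 on atorvastatin 2, 0.04 on vehicle 2 and -0.28 on vehicle 5. Its lowest value (-0.38) was on rosuvastatin 5, where Nr1d2 was low (-0.43). Arntl had -0.287 on atorvastatin 6, -0.14 on rosuvastatin 5 and -0.125 on rosuvastatin 6, all lower than on vehicle 2 or vehicle 5. Per1, Per3, Cry2 and DBP, which also follow the clock, were above background on 0 arrays and Per2 on 2.

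**Figure D5:**
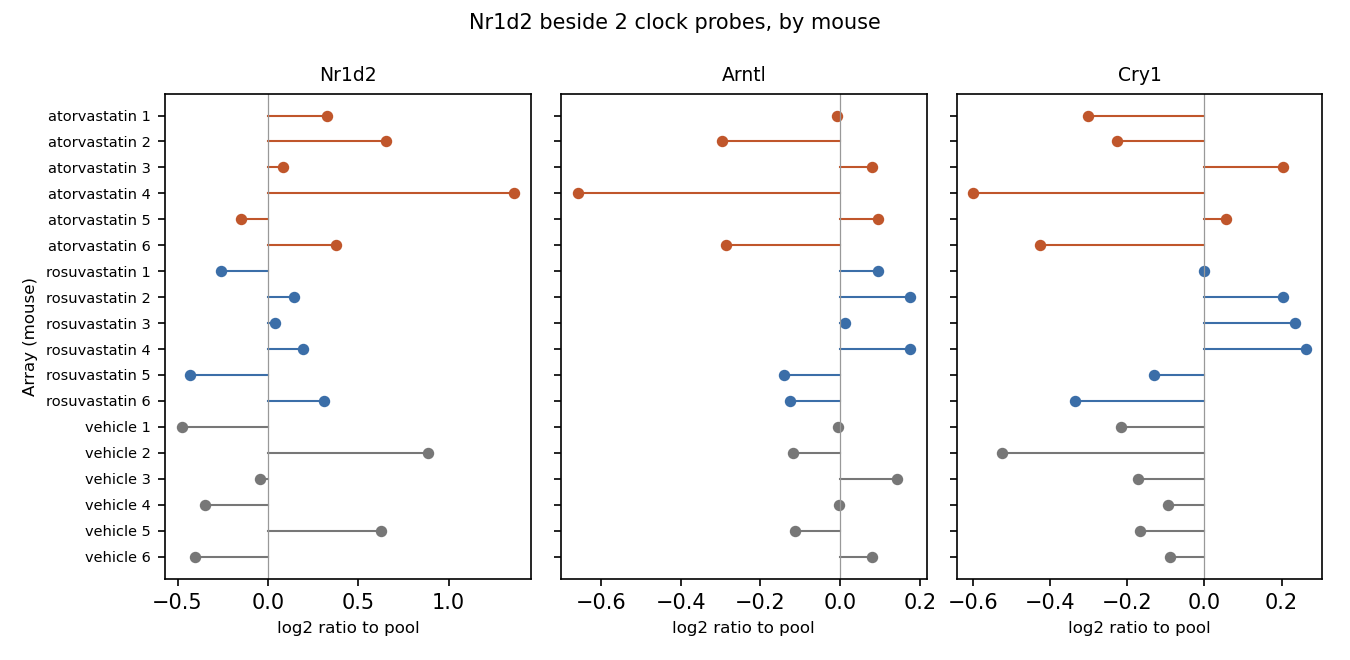
Log2 ratio to the pool of Nr1d2, Arntl and Cry1 in each of the 18 mice (rows; atorvastatin, rosuvastatin, vehicle), with a separate scale for each gene. Atorvastatin 4 has the highest Nr1d2 (1.37) and the lowest Arntl (-0.66) and Cry1 (-0.60).

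The acute phase gene Saa1, a serum amyloid of the inflamed liver, was also highest on some of these arrays. It had 1.65 on atorvastatin 4, -1.44 on vehicle 5 and -2.54 on vehicle 2, the 3 highest of 18. On atorvastatin 2 it had -4.69. Its group means were -3.90 in atorvastatin, -5.12 in rosuvastatin and -3.98 in vehicle mice. The labels give the dose as a morning one and the interval as 24 h, and the hour at which each mouse was killed is not given in the sources used here. The part of sampling hour or of the acute phase in the spread of Nr1d2 was not tested.

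Of the receptors left out of the set, 6 probes are on the array and 5 of them were measured, and 0 passed the test. Unadjusted p under 0.05 was found for 2 of these 5 in atorvastatin against vehicle (Nr1c1, 0.37, and Nr1i3, 0.27; all probes 8.51%), for 2 in rosuvastatin against vehicle (Nr1i2, 0.41, and Nr1i3, 0.37; 6.38%) and for 2 in atorvastatin against rosuvastatin (Nr1h4, -0.21, and Nr1i2, -0.27; 5.32%). Receptors act through coregulators, of which 10 were on the array and 8 measured. Of these 0 passed the test, and Sumo2, a small protein attached to many transcription factors, had -0.15 for atorvastatin against vehicle (SE 0.06, unadjusted p 0.024, adjusted p 0.501). Sumo2 was 1 of 8 with an unadjusted p under 0.05 there, beside 8.51% of all probes.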

How the data were processed

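Liver RNA of 18 mice, 6 in each of 3 groups named by the labels, was hybridised to 2-colour Steroltalk arrays. The deposited spot files hold median intensity values of the spot and its local background in each channel, on a linear scale with no background removed. A second deposited table, of log2 ratios by the authors, was used as an alternative. Its columns correlated at 0.926 to 0.998 with the scanner ratios, rather than with the normalised ratios tested here, and had medians of -0.32 to 0.56. The direction was thus taken as sample over pool, while the normalisation of that table is not given in the sources used here.

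Background was corrected by normexp with an offset of 50, which by construction draws the ratios of dim spots towards 0, and ratios were normalised within arrays by loess in limma 3.58.1 (R 4.3.3, statmod 1.5.0), with control spots at weight 0. Spots of a probe were averaged. Probes above background on at least 6 of 18 arrays were fitted (lmFit, eBayes, 1 mean per group, no block). Adjustment (Benjamini-Hochberg) covered all 188 probes tested in a comparison, and exact permutation tests were two-sided. The number of arrays limits the precision. Every receptor was named except 1 that is not reported here and stays in the counts, and of other genes those of the lists with an unadjusted p under 0.05 or on which a result turned. The receptors and lists were chosen with earlier results of these data known. Gene names came from the RefSeq table of GRCm38.p6: 17 of the 39 codes matched a current symbol, 20 an older one and 2 (Nr3a2, Nr3c4) none. The number of pixels of the background ring in the files was equal on 11 arrays (3 atorvastatin, 4 rosuvastatin, 4 vehicle) and otherwise on 2 or 3, and it served as a batch term. Alternatives were other background corrections, centrings, filters, the deposited ratios, array weights, blocks and fits without single arrays.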

Additional observations from a re-analysis of the deposited data

Results flagged for a closer look

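For 3 receptor values, 1 mouse lay far from the other 5 of its group, with a gap to the nearest mouse of 0.626 to 0.676 of the range of the group, above the 95% critical value of Dixon's test. Of 39 groups examined (12 receptors and the number of receptors above background, in 3 groups each), chance flags about 1 in 20, or 1.95. Nr3c4 was highest on atorvastatin 1 at 0.39, with the next atorvastatin mouse at 0.18. Nr3c4 was lowest on vehicle 5 at -0.58, with the next vehicle mouse at -0.10. Nr3c1 was highest on vehicle 5 at 0.32, with the next vehicle mouse at 0.10, on an array that also had the most receptors above background. Both vehicle values come from the same array, and their causes were not tested.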

How the results depend on the processing

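The count of probes past the threshold stayed at 0 in all 3 comparisons under every alternative except 1: with the replicate number as a block, 2 probes passed for atorvastatin against vehicle, Ppia and Cebpz, neither of them a receptor (replicate block, adjusted p 0.047 for both). The labels do not say that equal numbers share a litter or day, and of 18 same-numbered pairs 10 had a correlation of deviations over 0.1 (range -0.60 to 0.61), so the numbers were not taken to pair the mice. Leaving out 1 array at a time gave 0 to 0 probes past the threshold. No receptor passed in any fit. The lowest adjusted p of a receptor was 0.200, with 1 array left out. Signs of receptor differences turned in 11 of 33 values with the deposited ratios, in 9 of 36 within the 11 arrays with an equal background ring, in 6 of 36 with that ring as a term, in 5 of 36 with median centring and in 37 of 648 with 1 array left out; the cause was not tested. The differences of Nr3c4 and of Nr1d2 for atorvastatin against vehicle kept their sign in every fit that held them. Receptors above 0 for atorvastatin against vehicle, 11 of 12 (all probes 45.7%), were 12 of 12 with median centring (58.5%) and 10 of 12 with spike-in centring (46.3%). With the deposited ratios they were 6 of 11, where 29.6% of all probes were above 0 and their median was -0.09. The median number of receptors above background on an array was 11.5, and it was 7 at background plus 3 SDs, 22 at background plus 1 SD and 27 in the reference channel. Signal over background limits which receptors can be described at all. At background plus 3 SDs 7 receptors, and at plus 1 SD 24, would count as measured. Leaving out both vehicle 5 and atorvastatin 4 was added after the data were seen, and turned 4 of 36 signs.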

Other observations

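With no filter on dim probes, the 27 receptors that were not measured had differences between -0.19 (Nr4a1) and 0.16 (Nr2f1) for atorvastatin against vehicle and between -0.18 (Nr4a1) and 0.18 (Nr2f1) for rosuvastatin against vehicle. None passed the test (0 of 27, smallest adjusted p 0.598). An unadjusted p under 0.05 was found for 0 of 27 in atorvastatin against vehicle, where 7.27% of all 289 probes had one, and for 2 of 27 (7.41%), Nr1c3 and Nr5a1, in rosuvastatin against vehicle, where it was 5.19%. Both were at background on most arrays, so these are ratios of signals near the floor.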
